A study of Mus musculus with 2 samples.

Results

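The genes described here are the aminoacyl-tRNA synthetases and a pair of scaffold genes, 38 of the 46511 gene rows measured by RNA sequencing in effector regulatory T cells. They were taken by gene symbol: 20 genes of cytosolic synthetases, 16 whose symbols end in ars2 and which encode mitochondrial enzymes, and Aimp1 and Aimp2, which encode scaffold proteins. All 38 were present and all 38 passed the filter of a mean of at least 1 FPKM (fragments per kilobase of transcript and per 1000000 fragments). The study had 1 library of Nrn1+/- cells and 1 of Nrn1-/- cells. Nrn1 is the gene of neuritin, which is held at the outer cell membrane by a lipid anchor.

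Both libraries came from C57BL/6 mice that carried a Foxp3 allele with the diphtheria toxin receptor and green fluorescent protein, and the sort kept effector cells, CD4+ CD25+ and CD44-high among other gates, that were positive for that protein. The control is titled wild type but its genotype is given as Nrn1+/-, so it is a heterozygote. The labels state neither the age of the mice nor how many went into a library. With 1 library per genotype there was no test, no library could be left out, and the values describe these libraries. In bulk RNA, fewer cells of a kind and less RNA per cell cannot be told apart.

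Aminoacyl-tRNA synthetases join each amino acid to its transfer RNA (tRNA), the step that fixes which amino acid a codon calls for. Nearly all amino acids have an enzyme for the cytosol and a separate one, also encoded in the nucleus, for mitochondria. Gars and Kars are known to give both forms from a single gene. Eprs encodes a fused enzyme for glutamate and proline. Several cytosolic enzymes sit in the multisynthetase complex, held together by the AIMP proteins. Activated T cells raise protein synthesis and with it their need for charged tRNA. When amino acids run short, the kinase GCN2 senses uncharged tRNA and the transcription factor ATF4 is translated, and many of the cytosolic synthetase genes are among its known targets.

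In every pair of values, the Nrn1+/- library comes first and the Nrn1-/- library second. Nrn1 stood at 66.5 and 4.62 FPKM, 14.4-fold lower in the library labelled Nrn1-/-, as its label requires. Foxp3 was at 257 and 195 FPKM, Il2ra at 601 and 564 FPKM, and Cd4 at 161 and 155 FPKM. Summed markers of other cells were low: B and plasma cells 7.41 and 11.6 FPKM over 9 genes, CD8 T and NK cells 9.84 and 8.65 over 5, myeloid and dendritic cells 1.80 and 2.22 over 11, and erythroid cells 0.636 and 0.202 over 5. S100a8, S100a9 and Siglech were at 0 in both libraries. The highest single marker in these lists was at 5.14 FPKM. The part of these cells in the synthetase values was not tested.

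The 38 genes differed little between the libraries as a body, with a median log2 ratio of Nrn1-/- over Nrn1+/- of 0.18 (pseudocount of 1 FPKM). Of the 38, 27 were higher in the Nrn1-/- library and 11 lower. Among all 10699 protein-coding genes tested, 54.2% were higher and the median log2 ratio was 0.04. That share depended on scaling, falling to 43.3% with upper-quartile scaling, 40.1% with protein-coding rows summing to 1000000 and 24.5% with all rows summing to 1000000. Only Yars2 was at least 1.5-fold higher on the log2 scale, where 7.03% of protein-coding genes were, and only Lars2 was at least 1.5-fold lower, where 3.69% were. With all rows summing to 1000000 Cars joined Lars2, and Yars2 dropped below 1.5-fold under each of the 3 rescalings and with a pseudocount of 5 FPKM.

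The spacing of low FPKM values gives the worth of 1 fragment, and with it an estimate of 511 to 63788 fragments per member and library. Counting error was then 0.396% to 4.42% of a value. The estimated 95% counting interval of the ratio left out 1 for 31 members, 24 of them higher and 7 lower, and held 1 for 7. These intervals cover counting error only, not the difference between mice, and the fragments carried no molecular identifiers.

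**Figure D1:**
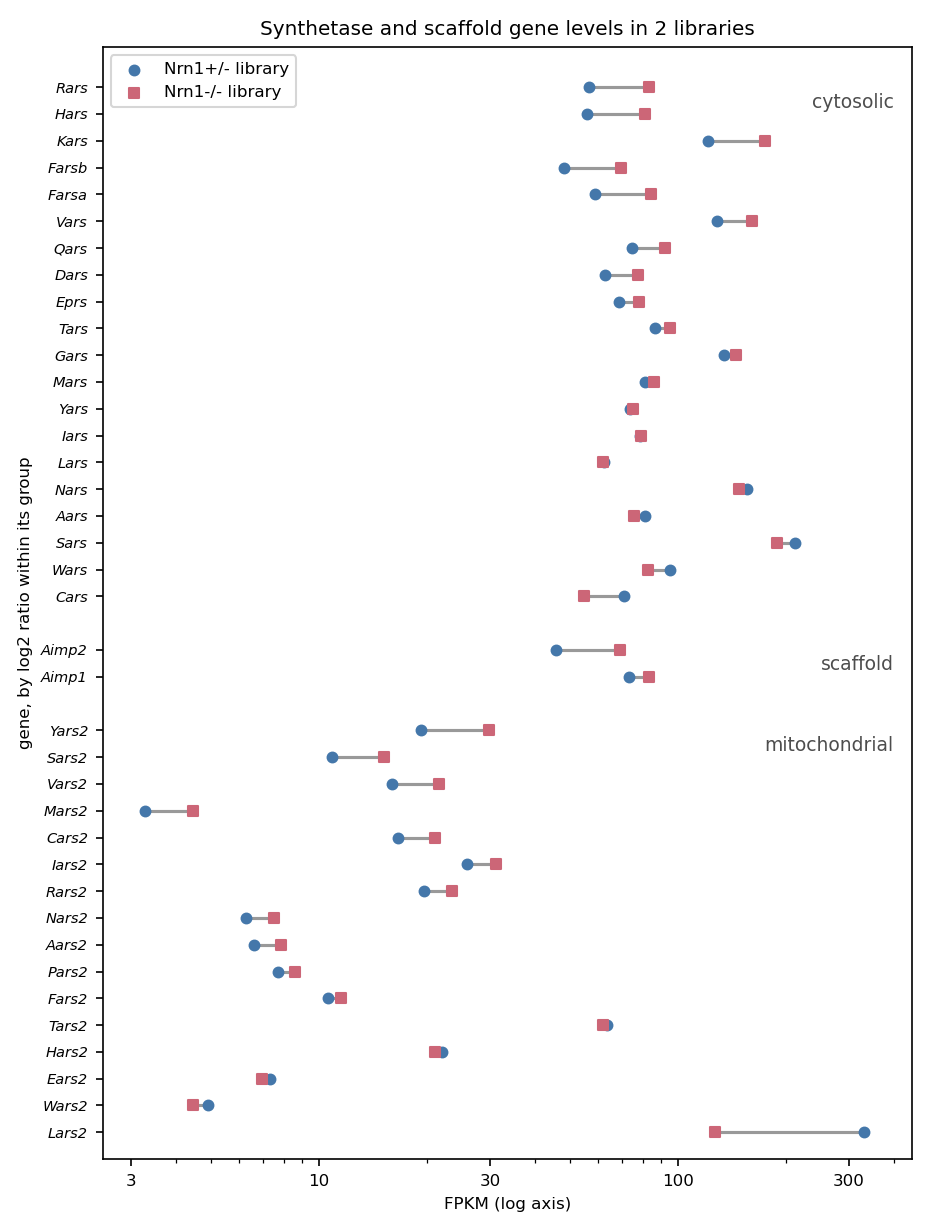
FPKM of the 38 genes in the Nrn1+/- library (circles) and the Nrn1-/- library (squares), on a log axis, ordered by log2 ratio within each group; each point is 1 library. Cytosolic enzymes lie between 48.4 and 212 FPKM, most mitochondrial ones below 35 FPKM, and Lars2 at 331 and 127 FPKM.

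Cytosolic synthetase genes were all well expressed, from Farsb at 48.4 FPKM to Sars at 212 FPKM in the Nrn1+/- library. Of the 20, 14 were higher in the Nrn1-/- library, beside 67.6% of the 1918 protein-coding genes with a mean of 50 to 250 FPKM, so the count is near the background of that level. None was 1.5-fold apart in either direction. Their median log2 ratio of 0.13, beside 0.15 for genes of that level, turned to -0.16 when all rows were summed to 1000000.

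Within that body the genes were split by a list of known ATF4 targets, a comparison added after the data were seen. Of the 12 known as ATF4 targets, 6 were higher and 6 lower in Nrn1-/- cells, and their median log2 ratio was 0.00. That even split depended on scaling: 3, 2 and 0 were higher with upper-quartile scaling, protein-coding rows summing to 1000000 and all rows summing to 1000000. All 8 other cytosolic genes were higher, with a median of 0.52. As background on the deposited scale, 67.6% of the 1918 coding genes averaging 50 to 250 FPKM were higher, with a median of 0.15. The median of the known targets lay below that value, and the median of the other cytosolic genes above it. The lists did not overlap: the known targets ran from -0.37 to 0.18 and the others from 0.30 to 0.54. The median difference of 0.52 stayed between 0.49 and 0.52 under 8 alternative settings, and the 8 others were higher in each of them. The rescalings and centring shift these genes by nearly the same log2 amount, and the filters removed no cytosolic gene. Only the pseudocounts could therefore move the difference much. The target list was drawn up from general knowledge with earlier results of these data known, and the comparison is a description of 2 libraries.

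Among the known targets, the gene with the lowest ratio was Cars, which encodes the cysteinyl-tRNA synthetase, at 71.0 and 54.8 FPKM, 1.29-fold lower. Wars, for tryptophan and also known as a gene induced by interferon gamma, was at 95.1 and 83.0 FPKM. Sars, for serine, was at 212 and 189 FPKM. These 3 were the lowest ratios among cytosolic enzymes. Aars, for alanine, was at 81.1 and 75.9 FPKM, and Nars, for asparagine, at 156 and 149 FPKM. Lars, Iars and Yars, for leucine, isoleucine and tyrosine, were the cytosolic members whose libraries matched within counting error, at 62.4 and 62.1, 78.5 and 78.9, and 73.7 and 75.3 FPKM. Mars, for methionine, was at 81.4 and 85.8 FPKM. Gars, for glycine, was at 135 and 146 FPKM, and Tars, for threonine, at 86.3 and 95.1 FPKM. Eprs, at 68.6 and 77.9 FPKM, had the highest ratio of this list, 1.13-fold.

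Of the 8 other cytosolic genes, 5 lay within a narrow band from 1.43-fold to 1.46-fold higher. Rars, the arginine enzyme (chr11:35808381-35834506, minus strand, GRCm38), had the largest ratio of all cytosolic genes, at 56.7 against 83.0 FPKM. Hars, for histidine, was at 56.1 against 81.4 FPKM. Kars, the lysine enzyme of both compartments (chr8:111993443-112011323, minus strand), was at 122 against 175 FPKM. Farsa and Farsb encode the alpha and beta subunits of the phenylalanine enzyme, which works as a tetramer of both. Farsa stood at 58.8 against 84.3 FPKM and Farsb at 48.4 against 69.7 FPKM, so the subunit genes had nearly the same ratio, 1.43-fold and 1.44-fold. The other 3 were nearer to the known targets: Vars, for valine, was at 129 against 161 FPKM, Qars, for glutamine, at 74.6 against 92.4 FPKM, and Dars, for aspartate, at 62.9 against 77.7 FPKM.

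**Figure D2:**
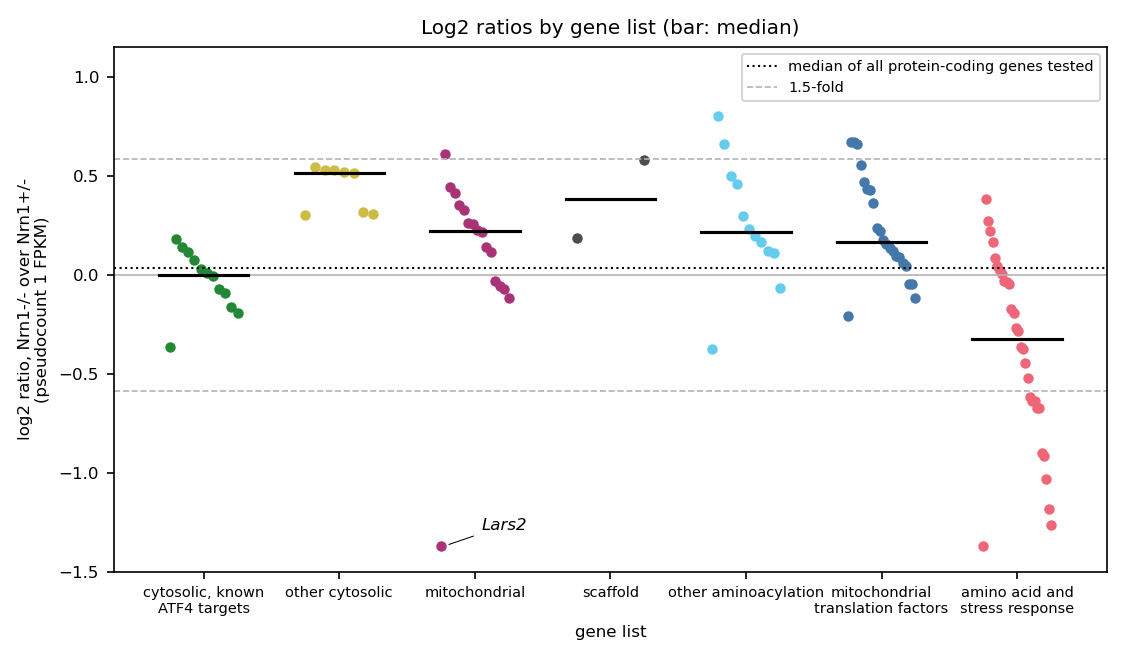
Log2 ratio of Nrn1-/- over Nrn1+/- FPKM (pseudocount 1 FPKM) for each gene with a mean of at least 1 FPKM, by gene list; bars are medians and the dotted line is the median of all protein-coding genes tested, 0.04. The 12 known ATF4 targets spread around 0.00, the 8 other cytosolic genes lie above all of them at a median of 0.52, and Lars2, at -1.37, lies far below the other synthetases; dashed lines mark 1.5-fold.

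The letters TGATGNAA, of the kind bound by pairs of C/EBP and ATF proteins, were looked for on both strands in promoter windows of 300 bases (250 before to 50 after each start, RefSeq, GRCm38.p6). Windows were matched for 28 of the 38 genes. The letters were present for 5 of 7 known ATF4 targets (Aars, Gars, Iars, Tars and Yars, but not Eprs or Sars), for 0 of 5 other cytosolic genes (Dars, Farsa, Farsb, Kars and Qars), for 0 of 14 mitochondrial genes and for neither scaffold gene. They were present for 4.51% of the 27025 symbols in that table. Not matched were Cars, Hars, Lars, Mars, Nars, Rars, Vars, Wars, Hars2 and Pars2. The sites are shown as the letters found in promoters of known targets. Of the 5 genes that hold them, Gars, Iars, Tars and Yars had log2 ratios above 0 and Aars below, and no link between the letters and the ratios was tested. Each is 30 bases on the gene's strand, and capitals mark the match, which reads in the opposite direction for all but Yars.
Aars, chr8:111033840-111033869, beginning at base 10 of the transcript: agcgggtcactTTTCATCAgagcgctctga
Gars, chr6:55037960-55037989, beginning 30 bases before the start: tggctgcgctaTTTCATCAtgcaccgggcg
Tars, chr15:11399655-11399684, beginning 15 bases before the start: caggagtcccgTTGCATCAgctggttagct
Iars, chr13:49682126-49682155, beginning at base 8 of the transcript: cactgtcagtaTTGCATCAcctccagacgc
Yars, chr4:129189895-129189924, beginning at base 4 of the transcript: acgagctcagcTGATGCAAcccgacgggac
A single site is shown for each gene. A match is a description of the letters and not evidence of binding, and a window without one says nothing of the factor. The E-box letters CACGTG, known for MYC and USF proteins, were present for 3 of 7 known targets (Aars, Iars and Tars), 1 of 5 others (Farsb) and 1 of 14 mitochondrial genes (Ears2), beside 8.09% of all symbols.

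The enzymes of the multisynthetase complex are among the cytosolic genes above, so the same split inside it is not a further observation. Its 11 genes, among them Eef1e1, which encodes the scaffold protein AIMP3, had a median log2 ratio of 0.30, with 10 higher. For protein-coding genes with a mean of 50 to 250 FPKM the median was 0.15, with 67.6% higher. The enzymes known as ATF4 targets, Lars, Iars, Mars and Eprs, had log2 ratios from -0.01 to 0.18. The remaining enzymes, Dars, Qars, Kars and Rars, had ratios from 0.30 to 0.54. Of the scaffold genes, Aimp2 stood at 45.7 against 68.9 FPKM and Eef1e1 at 66.7 against 91.9 FPKM, while Aimp1 was nearer to level at 73.0 against 83.2 FPKM. The 1.51-fold FPKM ratio of Aimp2 fell just short of 1.5-fold once the pseudocount was added, with a log2 ratio of 0.58. In GENCODE M21, 29.4% of its exonic bases overlap Eif2ak1.

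Synthetases fall into class I and class II by the fold of their catalytic domain. The median log2 ratio was 0.05 for the 10 cytosolic genes of class I and 0.22 for the 10 of class II, with 7 higher in each. Among mitochondrial genes the order was the other way, with 0.26 for 9 of class I and 0.14 for 7 of class II. The range within each class exceeded these differences.

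Mitochondrial synthetase genes were expressed at lower levels, and 11 of the 16 were higher in the Nrn1-/- library. Among protein-coding genes with a mean of 3 to 30 FPKM, the range of all but Lars2 and Tars2, 49.7% were higher. The median log2 ratio of the 16 was 0.22, or 0.23 without Lars2, beside -0.0016 for genes of that level, and it turned to -0.03 with all rows summing to 1000000. Mitochondrial enzymes therefore had a median 0.10 above that of the cytosolic enzymes, a difference smaller than the spread within either group (standard deviation over genes 0.28 for cytosolic, 0.21 for mitochondrial without Lars2).

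The highest ratio belonged to Yars2, the mitochondrial tyrosine enzyme (chr16:16302965-16309640, plus strand), at 19.3 against 29.9 FPKM, 1.55-fold higher. Sars2, for serine, was at 10.9 against 15.2 FPKM and Vars2, for valine, at 16.01 against 21.6 FPKM. Both passed 1.35-fold, as did Mars2, for methionine, the least expressed member at 3.28 against 4.47 FPKM. Cars2, for cysteine, stood at 16.6 against 21.1 FPKM, opposite in direction to cytosolic Cars. Another group lay near 1.2-fold: Iars2 for isoleucine at 25.96 against 31.3 FPKM, Rars2 for arginine at 19.6 against 23.6, Nars2 for asparagine at 6.28 against 7.52 and Aars2 for alanine at 6.60 against 7.84.

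The rest were closer to level. Pars2, the proline enzyme, was at 7.72 against 8.59 FPKM. Fars2, for phenylalanine, was at 10.6 against 11.6 FPKM, within counting error. Fars2 neighbours Nrn1 on chromosome 13, and in GENCODE M21 an exon of Fars2 overlaps an exon of the targeted gene, although its level did not move with that of Nrn1. Tars2, for threonine, at 63.4 and 62.0 FPKM, Hars2, for histidine, at 22.02 and 21.1 FPKM, and Ears2, for glutamate, at 7.33 and 6.93 FPKM, differed by no more than counting error. Wars2, for tryptophan, was at 4.93 against 4.46 FPKM, the lowest ratio after Lars2. Hars and Hars2 lie head to head and share 195 exonic bases, so fragments there could be given to either, yet Hars was 1.45-fold higher and Hars2 1.04-fold lower.

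Compared per amino acid, the mitochondrial enzyme was expressed below its cytosolic partner for 15 of 16 amino acids. Leaving leucine out, the mitochondrial gene reached a median of 12.4% (Nrn1+/-) and 13.4% (Nrn1-/-) of the FPKM of the cytosolic gene. The lowest shares were those of asparagine (4.02% and 5.06%) and methionine (4.04% and 5.21%), and the highest that of threonine (73.4% and 65.2%). The mitochondrial gene had the higher log2 ratio for 9 amino acids and the cytosolic gene for 7. Both partners were on the same side of 0 for 9 of the 16. The largest gaps with the mitochondrial gene higher were those of cysteine (0.69), serine (0.61) and tyrosine (0.58), and after leucine the largest gap the other way was that of histidine (-0.59).

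**Figure D3:**
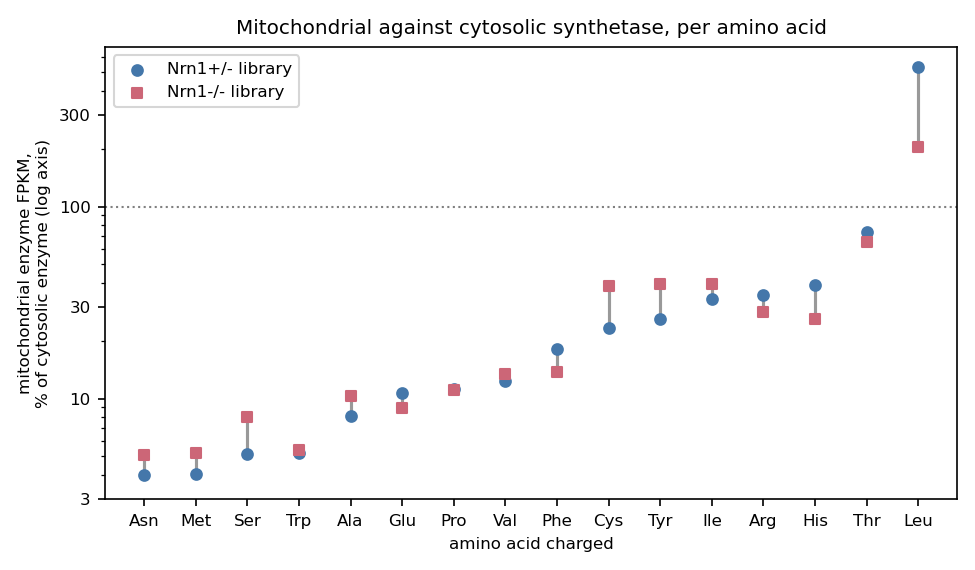
FPKM of the mitochondrial synthetase as a percentage of its cytosolic partner for 16 amino acids, on a log axis, in the Nrn1+/- library (circles) and the Nrn1-/- library (squares); the dotted line is 100%, Eprs serves for glutamate and proline, and Farsa for phenylalanine. Shares other than that of leucine lie between 4.02% and 73.4%, while leucine is at 530% and 205%.

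Lars2, the mitochondrial leucine enzyme, stood apart in level and in ratio. It was at 331 and 127 FPKM, 2.60-fold lower, with a log2 ratio of -1.37 that ran from -1.66 to -1.34 over 8 alternative settings. Only 0.262% of protein-coding genes were at least 2-fold lower. It had the lowest log2 ratio among the 1004 protein-coding genes averaging 100 FPKM or more. Its level was the highest of all 38 genes in the Nrn1+/- library, 5.22 times that of Tars2, the next mitochondrial enzyme, and 30.3 times the median of the other 15. In the Nrn1-/- library it was still 2.054 times Tars2 and 8.37 times the median. Lars2 alone made up 57.9% of the summed FPKM of mitochondrial synthetases in the Nrn1+/- library and 31.5% in the other. That sum was 571 against 405 FPKM with Lars2 and 241 against 277 FPKM without it, so 1 gene set its direction.

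The Lars2 row holds sequence that other transcripts share. The gene (chr9:123366927-123462666, plus strand, GRCm38) has 9 annotated transcripts in GENCODE M21. The longest coding one has 3894 bases in 21 exons, and its coding part ends at base 2905 with a 3' UTR in exon 21. Within that UTR, 72 bases (chr9:123462048-123462119) were 98.6% identical to Gm15564, one of the listed rows known or suspected to hold ribosomal RNA sequence. A stretch of 97 bases that overlaps it (chr9:123462003-123462099) was 94.8% identical to AA474408. Matches to the listed rows Cmss1, Gm10800 and Gm10801 were left out of the next count. Of the 38 members, 1 had such a stretch of at least 50 bases and 90% identity with one of the ribosomal rows, and that was Lars2. Reads from those bases could be assigned to either gene, so the Lars2 value is uncertain. Gm15564 was at 0.886 and 0.379 FPKM and AA474408 at 0.390 and 0.375 FPKM, beside 331 and 127 FPKM for Lars2. No sequence of the large ribosomal RNA itself was available, so the transcript was compared only with GENCODE transcripts.

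Of the listed rows known or suspected to hold ribosomal RNA sequence, 8 passed the filter, 6 of them lower in the Nrn1-/- library and 2 higher. Of all 12351 rows tested, 5890 were lower. Rows of the 45S ribosomal precursor region on chromosome 17 were Gm26917 at 253 against 109 FPKM, 2.33-fold lower, and Rn18s-rs5, which holds 18S sequence, at 1680 against 923 FPKM, 1.82-fold lower. A pair of rows both named Yam1 there, Gm42418 and AY036118 in GENCODE, were at 305 against 158 and at 1015 against 523 FPKM. Rn18s-rs5 overlaps both Yam1 rows and Gm26917 lies beside it, so these rows of a single locus are not separate observations. Gm15564 itself was at 0.886 against 0.379 FPKM, 2.34-fold lower. Its mean of 0.633 FPKM did not pass the filter, and no counting interval was estimated for it. AA474408, also below the filter, was level at 0.390 and 0.375 FPKM. Listed rows outside chromosome 17 went different ways. Rn7sk, annotated as misc_RNA, was at 24.0 against 17.4 FPKM. The protein-coding rows Gm10801, Gm10800 and Cmss1 were at 3.05 against 0.669, 11.6 against 12.5 and 16.8 against 25.5 FPKM. Whether these rows hold ribosomal RNA sequence was not examined here, so they do not show how ribosomal RNA differed. The rows mt-Rnr1 and mt-Rnr2 were listed at 0 in both. The libraries were made from poly(A) RNA. The part of ribosomal sequence in the Lars2 difference was not tested.

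**Figure D4:**
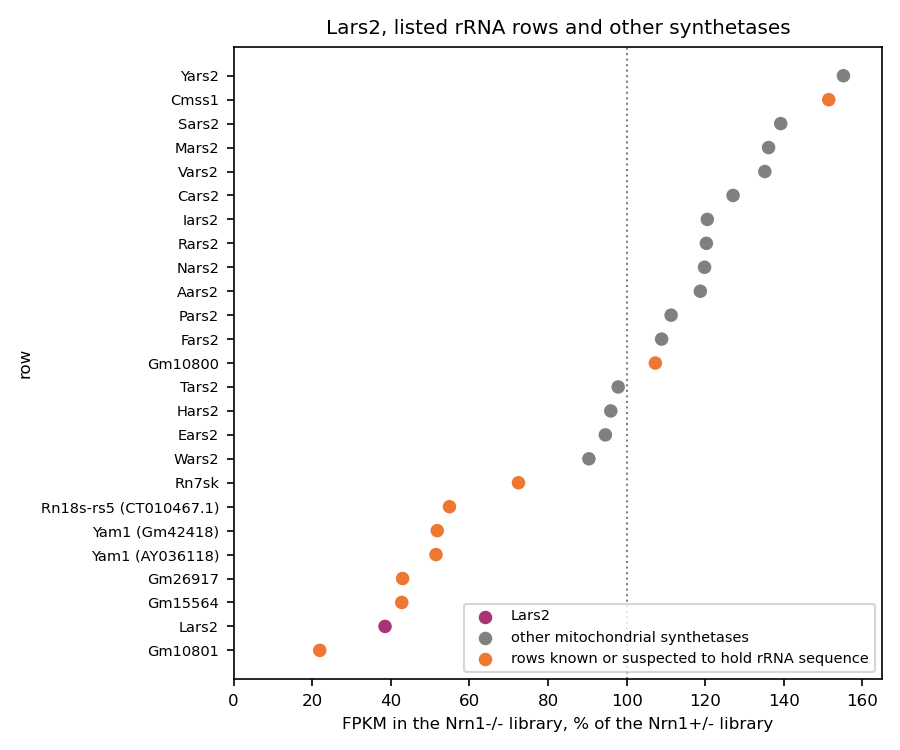
FPKM in the Nrn1-/- library as a percentage of the Nrn1+/- library for the 16 mitochondrial synthetases and the 9 listed rows, known or suspected to hold ribosomal RNA sequence, with a value above 0; each point is 1 row, and names in brackets are those of GENCODE M21. The listed rows on chromosome 17 lie between 43.0% (Gm26917) and 54.9% (Rn18s-rs5). Listed rows elsewhere spread from 21.9% (Gm10801) to 151% (Cmss1), Lars2 is at 38.5%, and the other 15 synthetases lie between 90.4% and 155%.

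Genes that work beside the synthetases were mostly higher too, with medians near that of the mitochondrial enzymes. Of 12 further aminoacylation genes, 10 were higher, beside 54.2% of protein-coding genes, with a median log2 ratio of 0.21. Aarsd1, which encodes an editing enzyme for mischarged alanine tRNA, was at 32.5 against 51.9 FPKM. Prorsd1, picked as the lowest, was in the other direction, at 14.3 against 10.8 FPKM. Gatb, a subunit of the enzyme that converts glutamate to glutamine on mitochondrial tRNA, was at 7.08 against 10.4 FPKM.

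Of 43 genes of tRNA synthesis, processing and export, 38 were higher, with a median of 0.20, and 5 by at least 1.5-fold, beside 54.2% and 7.03% of protein-coding genes. These 5 were Pop1 (16.05 against 28.9 FPKM), a subunit of RNase P, Rpp25 (0.641 against 1.69), Elac2 (22.8 against 35.7), which trims the tRNA 3' end, Polr3k (17.3 against 27.1), an RNA polymerase III subunit, and Gtf3c4 (9.99 against 15.6). Maf1, a repressor of RNA polymerase III, had the lowest ratio at 172 against 119 FPKM. Of 22 mitochondrial translation genes 18 were higher, read against the same shares, with a median of 0.16, and the 3 beyond 1.5-fold were all elongation factors: Gfm1 (36.0 against 58.0 FPKM), Tsfm (27.9 against 44.9) and Tufm (41.6 against 66.4). The counts of these lists were not recomputed under the rescalings, which lowered the share of all protein-coding genes higher to as little as 24.5%.

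Genes of the amino acid and integrated stress response lay in the other direction. Of 36 rows, 30 passed the filter and 22 of these were lower with Nrn1-/-, where 45.8% of protein-coding genes were. Their median log2 ratio was -0.33, and 11 were at least 1.5-fold lower and 0 higher, beside 3.69% and 7.03% of protein-coding genes. The 5 lowest ratios were those of Trib3 (28.6 against 10.5 FPKM), Nupr1 (10.8 against 3.93), Slc6a9 (15.1 against 6.12), Chac1 (10.5 against 4.63) and Atf5 (28.3 against 14.6). Ddit3, the gene of the transcription factor CHOP, was at 70.6 against 37.4 FPKM. It shares exonic bases with Mars, which was at 81.4 and 85.8 FPKM. The transcript of Atf4 itself was at 291 against 258 FPKM. Asns, which encodes the asparagine synthetase and is a known ATF4 target, was at 76.1 against 58.4 FPKM. Enzymes of serine synthesis, also known targets, did not share this: Phgdh was at 224 against 292 FPKM and Psat1 at 148 against 179. Atf4, Asns, Phgdh and Psat1 were picked after their values were seen. The median of the synthetase genes known as ATF4 targets, 0.00, lay between those of the stress genes and the other cytosolic synthetases. That order rests on lists chosen with earlier results known, and a link with ATF4 was not tested.

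Positions of the genes with the outermost ratios are those of GENCODE M21 (GRCm38). Of the cytosolic genes with the lowest ratios, Cars at chr7:143557230-143600090 (minus strand), Wars at chr12:108860030-108894174 (minus strand) and Sars at chr3:108424865-108445209 (minus strand) are protein-coding, as are all members. Hars, beside Rars and Kars among the 3 highest, lies at chr18:36766528-36783205 (minus strand). Of the mitochondrial genes, the outermost after Lars2 and Yars2 are Sars2 at chr7:28741992-28753871 (plus strand), Vars2 at chr17:35655634-35667592 (minus strand), Wars2 at chr3:99141068-99239186 (plus strand) and Ears2 at chr7:122037213-122067263 (minus strand). Exons of other genes cover 24.2% of the exonic bases of Iars2, 15.1% of Aars, 10.7% of Fars2 and 9.47% of Farsb, and counting by strand is not stated, so part of these values could come from the overlapping genes.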

How the data were processed

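The deposited values are FPKM per gene, made by the authors. The file headers name no unit, so it was read from the values and the tools: per the submitters' processing notes, these were FastQC, TopHat, Cuffdiff and Cuffnorm, with the builds mm10 and GRCm38. The annotation, filters and any scaling across libraries: not given in the sources used here. FPKM has no replicate here, so no model was fitted. The ratio was log2((Nrn1-/- + 1)/(Nrn1+/- + 1)), for rows with a mean of at least 1 FPKM, and the 1.5-fold and 2-fold thresholds apply to it; plain folds carry no pseudocount. The members and lists were chosen with earlier results of these data known. Every member is named. Of other lists, the 3 largest ratios and members beyond 1.5-fold are named, up to 8, except a few items not reported here. The difference between ATF4 lists and the FPKM bands were added after seeing the data. Alternatives were 3 rescalings, centring, 2 pseudocounts and 2 filters.

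The depth was estimated from genes with 1 annotated transcript in GENCODE M21. FPKM times length less 210 bases came in steps, 1 fragment on 1 kilobase being worth 0.0191 (Nrn1+/-) and 0.0249 FPKM (Nrn1-/-): 93.8% of 2355 and 94.0% of 1970 low values were whole to within 0.1 fragment, where chance gives 20%. Fragments per member used the longest coding transcript, and exact binomial 95% intervals the pair of fragment numbers. The step and ratio code was tested on simulated data with known answers. Transcripts were compared with BLAST+ 2.17.0. Counting by strand is not stated.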

Additional observations from a re-analysis of the deposited data

How the results depend on the processing

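No replicate could be left out, since each genotype has 1 library. The rescalings moved the median log2 ratio of all tested rows by -0.09 (upper quartile), -0.12 (protein-coding rows summing to 1000000) and -0.27 (all rows summing to 1000000). In that order the cytosolic median of 0.13 became 0.029, 0.00094 and -0.163, the mitochondrial median of 0.22 became 0.136, 0.117 and -0.034, the Lars2 ratio became -1.47, -1.498 and -1.66, and the known ATF4 targets higher in the Nrn1-/- library went from 6 to 3, 2 and 0. Mitochondrial enzymes at least 1.5-fold higher went from 1 to 0 in all 3. With all rows summing to 1000000, 8 cytosolic and 5 mitochondrial enzymes were higher, and 2 members (Lars2 and Cars) were at least 1.5-fold lower. A pseudocount of 5 FPKM gave a mitochondrial median of 0.149, 0.027 above the cytosolic one, 0 mitochondrial enzymes at 1.5-fold and -1.34 for Lars2. These shifts follow from the scale factors and the pseudocount. The gap between other cytosolic genes and known ATF4 targets changed little under the 8 alternatives run. So did the 8 of 8 others higher and the absence of 1.5-fold higher cytosolic genes. For that gap this was largely fixed, since rescaling and centring shift these genes by nearly the same amount and the filters removed none of them. The stress genes lower in the Nrn1-/- library went from 22 of 30 to 26, 26 and 29 under the 3 rescalings, in the same order. The share of all protein-coding genes higher fell alongside, from 54.2% to 43.3%, 40.1% and 24.5%. The filters changed which stress genes were counted, with 26 lower without a filter and 21 at a mean of at least 5 FPKM. Counting error limited Ears2, Hars2, Tars2, Fars2, Lars, Iars and Yars, whose libraries were not distinguishable on the deposited scale.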
